A study of Mus musculus with 24 samples.

Results

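The nuclear genes for the subunits of the 5 oxidative phosphorylation complexes were taken from the count files by gene symbol. Symbols that begin with Nduf (other than Ndufaf), Uqcr, Atp5 or Cox4 to Cox8 were included, together with Sdha, Sdhb, Sdhc, Sdhd and Cyc1. The rule found 86 of the 24421 genes in the files: 36 in complex I, 4 in complex II, 9 in complex III, 20 in complex IV and 17 in complex V. Ndufa4 and Ndufa4l2 carry a complex I name and were placed with complex IV, where the Ndufa4 protein is now known to sit. Atp5sl entered by its symbol, although its protein, also called Dmac2, is known as an assembly factor of complex I. Atp5s, also listed as Dmac2l, likewise entered by its symbol. By their symbols, Atp5sl and Atp5s are both counted with complex V throughout.

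Messenger RNA was measured by poly(A) RNA-seq in 24 heart samples from male mice, 14 weeks old, fed chow, on a mixed background that was mostly C57BL/6N with some 129. The mice carried alleles of Acadl and Acadvl, which encode the long-chain and the very long-chain acyl-CoA dehydrogenases of mitochondrial fatty acid oxidation. The groups were 4 samples labelled Acadl KO / Acadvl wt, 5 labelled Acadl KO / Acadvl Het, 4 of Acadl Het / Acadvl KO, 3 of Acadl Het / Acadvl Het, 4 of Acadl Het / Acadvl wt and 4 of Acadl wt / Acadvl wt, called wild type here. The Acadvl KO samples and their controls were thus all heterozygous for Acadl. Nothing in the labels states that each sample is a different mouse, so the p-values cover the spread between samples, which may be technical.

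The respiratory chain hands electrons from NADH through complex I, and from succinate through complex II, to coenzyme Q, then through complex III and cytochrome c to oxygen at complex IV. Complexes I, III and IV pump protons across the inner mitochondrial membrane, and complex V, the ATP synthase, uses the return flow to make ATP. The heart depends on this pathway for most of its ATP and burns mainly fatty acids. Several small complex IV subunits exist as paired isoforms: Cox6a2, Cox7a1 and Cox8b are the forms typical of heart and skeletal muscle, and Cox6a1, Cox7a2 and Cox8a are the forms found in most tissues.

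Libraries held 34320838 to 51743114 counts in total, with 17571 to 18351 genes detected. RNA had been isolated in 2 batches, and every genotype had libraries in both. Batch 1 held only 1 library each of labelled Acadl KO / Acadvl wt, Acadl Het / Acadvl KO and Acadl Het / Acadvl Het, so a test within batch 1 assumes that this library varies like those of the other groups, and its values are given below without a verdict. Acadvl, counted over the whole gene, was at 599.2 ± 121.1 CPM (counts scaled to the same library size) for Acadl Het / Acadvl KO, against 1632 ± 82.49 CPM for Acadl Het / Acadvl wt (SD, n = 4 each). Acadl went against its label: the libraries labelled Acadl KO held 1697 to 2100 CPM with Acadvl wt and 1827 to 1933 CPM with Acadvl Het, against 1324 to 1412 CPM in wild type. The sources used here do not say which part of Acadl the allele removes, so whole-gene counts do not check that label, and "labelled Acadl KO" is written throughout. All 10 cardiomyocyte markers examined were present, summing to between 71642 and 93572 CPM in every library. The 6 libraries above 10 CPM of the liver transcript Alb were all 3 Acadl Het / Acadvl Het libraries, replicate 2 of Acadl Het / Acadvl KO and replicates 2 and 3 of labelled Acadl KO / Acadvl wt. Replicate 2 of labelled Acadl KO / Acadvl Het stood apart for the subunit genes, being the lowest of its 5 libraries for 78 of the 84 tested. Replicate 1 of Acadl Het / Acadvl Het was the lowest of its 3 for 69, and 17.3% of its counts were of the ribosomal RNA precursor Rn45s, against 0.232% to 0.558% in the other libraries. Replicate 2 of Acadl Het / Acadvl wt was the highest of its 4 for 76. Results are also given without these 3 libraries where they move.

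Counting ignored strand, and some members share exon bases with a neighbour: Ndufs5 shares 95.1% of its exon length with BC002163 on the same strand, and Ndufs1 shares 67.8% with Ino80dos on the opposite strand. Shared bases on the opposite strand also affect Atp5j (27.2%, with Gabpa), Atp5f1 (22.7%, with Wdr77) Cox6a2 (10.5%, with Itgad) and Ndufa4l2 (7.05%, with Shmt2, which has a mean of 2668 counts against 657 for Ndufa4l2), so their values are uncertain to that extent. Many subunit genes have processed pseudogenes whose reads the counting could split.

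The promoters shown are those of the 2 genes that changed most, Cox6a1 and Cox8a, of the muscle form Cox8b as their contrast, and of Sdhd and Sdha, complex II genes whose messages moved in different comparisons. Each runs from 250 bases before to 50 bases after the annotated start, 5′ to 3′ on the gene's strand, from RefSeq (GRCm38.p6). All 5 lie on the minus strand: Cox6a1 at chr5:115348909-115349208, Cox8a at chr19:7217567-7217866, Cox8b at chr7:140900397-140900696, Sdhd at chr9:50603800-50604099 and Sdha at chr13:74350191-74350490. Capitals mark matches, on either strand, to the searched letters described after the sequences.
Cox6a1: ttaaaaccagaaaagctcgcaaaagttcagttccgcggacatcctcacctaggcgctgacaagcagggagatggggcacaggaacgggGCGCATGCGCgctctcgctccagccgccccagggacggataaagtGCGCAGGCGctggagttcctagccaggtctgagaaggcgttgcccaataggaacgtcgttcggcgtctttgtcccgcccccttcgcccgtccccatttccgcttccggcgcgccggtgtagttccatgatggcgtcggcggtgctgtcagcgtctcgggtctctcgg
Cox8a: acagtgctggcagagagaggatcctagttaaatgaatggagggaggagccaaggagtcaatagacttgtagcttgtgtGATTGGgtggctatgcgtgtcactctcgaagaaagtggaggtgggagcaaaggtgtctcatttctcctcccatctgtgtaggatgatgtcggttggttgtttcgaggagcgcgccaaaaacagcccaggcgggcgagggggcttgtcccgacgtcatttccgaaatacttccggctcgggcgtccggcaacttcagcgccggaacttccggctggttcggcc
Cox8b: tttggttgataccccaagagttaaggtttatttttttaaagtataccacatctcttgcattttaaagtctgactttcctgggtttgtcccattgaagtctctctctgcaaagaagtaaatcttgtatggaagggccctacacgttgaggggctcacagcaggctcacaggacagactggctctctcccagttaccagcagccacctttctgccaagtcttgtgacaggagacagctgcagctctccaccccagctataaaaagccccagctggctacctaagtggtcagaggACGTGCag
Sdhd: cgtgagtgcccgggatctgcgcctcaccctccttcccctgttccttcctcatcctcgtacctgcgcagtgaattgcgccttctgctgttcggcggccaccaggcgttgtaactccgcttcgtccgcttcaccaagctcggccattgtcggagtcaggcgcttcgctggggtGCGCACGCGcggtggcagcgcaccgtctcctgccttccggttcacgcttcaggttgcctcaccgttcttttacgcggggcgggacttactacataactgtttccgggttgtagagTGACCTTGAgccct
Sdha: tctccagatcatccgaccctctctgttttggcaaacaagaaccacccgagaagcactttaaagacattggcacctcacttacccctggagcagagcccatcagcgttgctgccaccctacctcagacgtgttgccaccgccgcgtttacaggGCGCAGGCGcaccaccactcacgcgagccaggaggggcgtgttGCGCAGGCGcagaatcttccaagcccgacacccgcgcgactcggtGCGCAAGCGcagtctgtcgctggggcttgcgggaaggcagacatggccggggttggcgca

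All motifs were searched on both strands. The capitals in Cox6a1 are 2 stretches that match the nuclear respiratory factor 1 motif (GCGCANGCG), of which 1 matches on both strands, and those in Sdha are 3. Sdhd holds 1 such match and 1 match to the estrogen-related receptor motif (TCAAGGTCA) on the other strand. Cox8a holds 1 match to the CCAAT motif (CCAATC) on the other strand, and Cox8b 1 match to a hypoxia response motif (ACGTGC). Of the 86 genes, 70 had a promoter in the table. The nuclear respiratory factor 1 letters were in 28.6% of these (20 of 70), against 7.03% of the 27025 genes with promoters in the table. The YY1 motif (AAGATGGCG) was in 11.4% of the subunit genes against 1.64% of all, and the estrogen-related receptor motif in 2.86% against 0.466%. The shares were closer for CCAAT (20% against 18.2%), an ETS motif (CCGGAAGTG, 2.86% against 2.25%) and the hypoxia motif (5.71% against 6.68%), and an ATF4 motif (TGATGNAAT) was in 0% against 1.08%. The letters of the first and the YY1 motif were shortened by 1 base after matches to the longer forms had been seen. Letters that match are a description of these windows and not evidence of binding.

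Levels are compared between genes per length, as RPKM (CPM divided by exon length in kilobases) averaged over the 24 libraries. Of the 86 genes, 84 passed the filter on low counts. Cox8c had 0 counts in every library and Cox7b2 had 0 to 10, so neither was tested. The median level was 300.9 RPKM in complex I, 490.8 in complex II, 680.3 in complex III, 683 in complex IV and 675.6 in complex V. Atp5b, the catalytic beta subunit of the ATP synthase, was highest at 3805 RPKM, and its partner Atp5a1, the alpha subunit, had 2269 RPKM. In complex IV the highest were Cox4i1 at 1927 RPKM and Cox6a2 at 1828 RPKM. Uqcrq and the core subunit Uqcrc1 led complex III at 1046 and 970.8 RPKM, Sdhb and Sdha led complex II at 803.5 and 654.5 RPKM, and Ndufb9 and Ndufb8 led complex I at 870.5 and 775.3 RPKM. The lowest tested genes of complexes I to V were Ndufa11 at 84.98 RPKM, Sdhd at 292.5 RPKM, Uqcr10 at 523.9 RPKM, Cox6b2, whose product is known from testis, at 3.03 RPKM, and Atp5s at 13.71 RPKM. Complexes IV and V had the widest ranges. The low end of complex V rested on Atp5s and Atp5sl (21.57 RPKM), and the next lowest gene there was Atp5g2 at 248.6 RPKM.

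**Figure D1:**
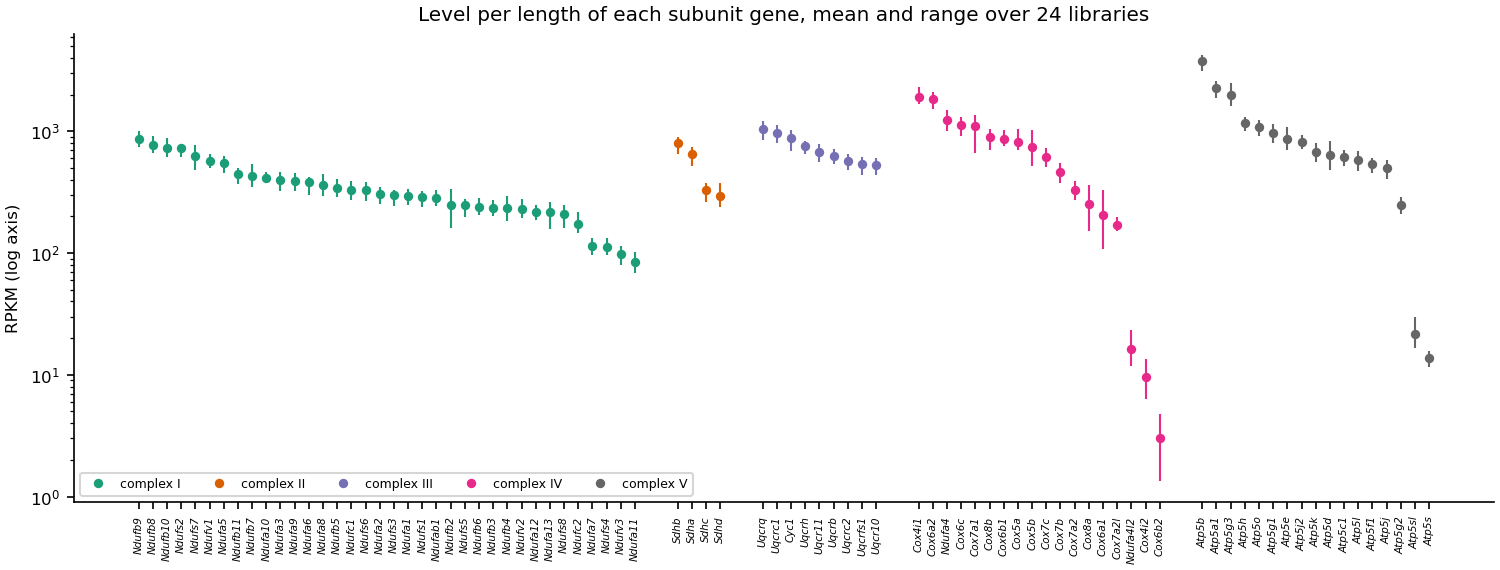
Level per length (RPKM, log axis) of each of the 84 tested subunit genes, grouped by complex and ordered by level. Points are means over 24 libraries and lines run to the lowest and highest library. Atp5b is highest at 3805 RPKM and Cox6b2 lowest at 3.03 RPKM.

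Across all 6 genotypes, 19 of the 84 genes differed (edgeR, adjusted p under 0.05), where 51.1% of all 15804 genes tested did. By complex the count was 3 of 36 in complex I, 4 of 4 in complex II, 2 of 9 in complex III, 5 of 18 in complex IV and 5 of 17 in complex V. Atp5sl was among those counted in complex V. Without replicate 2 of labelled Acadl KO / Acadvl Het the total was 34. It was 8 and 9 without replicates 4 and 1 of Acadl Het / Acadvl KO, and 12 without replicate 1 or 2 of wild type, or replicate 3 of Acadl Het / Acadvl wt or of Acadl Het / Acadvl Het. Here and below, counts of calls under omissions or other settings come without the share of all genes called in the same fit. They show how far a count moved and are not a result about the subunit genes. The smallest adjusted p-values belonged to Cox6a1 (1.16e-08), Cox8a (6.15e-06), Sdhc (2.59e-05) and Atp5sl (5.37e-05). Over the 24 libraries the coefficient of variation of CPM was 36.9% for Cox6a1, 26.5% for Cox8a and 19.3% for Atp5sl.

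Cox6a1 (chr5:115345654-115348955, mm10, minus strand) encodes the widely expressed form of a complex IV subunit, and it changed most. It had 154.5, 175.8, 124.8 and 144.9 CPM in labelled Acadl KO / Acadvl wt hearts and 154.3, 126.6, 149.9, 150.3 and 160.9 CPM in labelled Acadl KO / Acadvl Het hearts. Acadl Het / Acadvl KO hearts had 143.1, 137.9, 121.1 and 102.4 CPM. The controls had 68.09, 77.41 and 79.94 CPM in Acadl Het / Acadvl Het hearts, 66.9, 77.6, 65.13 and 64.52 CPM in Acadl Het / Acadvl wt hearts, and 57.07, 64.2, 69.45 and 67.84 CPM in wild type. Every library of the 3 genotypes with a labelled knockout lay above every library of the other 3. Taken pairwise, ranges did not overlap for 35.8% of all genes and 17.9% of the 84 between labelled Acadl KO / Acadvl wt and wild type. Between Acadl Het / Acadvl KO and Acadl Het / Acadvl wt the shares were 23.5% and 20.2%. For labelled Acadl KO against Acadl Het they were 18.3% and 4.76%. Cox6a1 rose 2.31-fold in labelled Acadl KO / Acadvl wt hearts against wild type (log2 change 1.21 ± 0.11 SE, edgeR adjusted p = 3.04e-07) and 2.08-fold in labelled Acadl KO against Acadl Het hearts (1.05 ± 0.08, adjusted p = 3.98e-09). In Acadvl KO against Acadvl wt hearts, both Acadl Het, it rose 1.84-fold (0.88 ± 0.11, edgeR adjusted p = 1.46e-05). Each call held within batch 2 alone, with log2 changes of 1.33 against wild type, 1.03 against Acadl Het and 0.89 for Acadvl KO. The values in batch 1 were 1.08, 1.06 and 0.67 in the same order.

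Cox8a (chr19:7215158-7217616, mm10, minus strand), the widely expressed form of another small complex IV subunit, had 180.6, 164.9, 151.8 and 140.5 CPM in labelled Acadl KO / Acadvl wt hearts. It had 182.7, 166.5, 177.5, 176.6 and 197.7 CPM in labelled Acadl KO / Acadvl Het hearts and 180.4, 159.6, 141.6 and 133.6 CPM in hearts of Acadl Het / Acadvl KO. The controls had 83.24, 113.7 and 118.4 CPM in Acadl Het / Acadvl Het hearts, 100.5, 111.5, 87.28 and 117.6 CPM in Acadl Het / Acadvl wt hearts, and 82.79, 91.02, 112.3 and 108.8 CPM in wild type. The genotypes with a labelled knockout again lay above all the others with no overlap. The log2 change of Cox8a was 0.71 ± 0.13 for labelled Acadl KO / Acadvl wt against wild type (edgeR adjusted p = 0.000228), 0.70 ± 0.09 for labelled Acadl KO against Acadl Het (2.25e-06), and 0.57 ± 0.13 for Acadvl KO against Acadvl wt (0.00226). In batch 1, with 1 library of each of these knockout labels, the change was 0.35 against wild type and 0.40 for Acadvl KO. Without the libraries above 10 CPM of Alb, both Cox6a1 and Cox8a passed against wild type and for Acadvl KO. No Acadl Het / Acadvl Het library was then left, and both also passed for labelled Acadl KO set against Acadl Het / Acadvl wt alone.

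The muscle forms of the same subunits did not pass the test in any of these comparisons. Cox6a2 averaged 1207 CPM in labelled Acadl KO / Acadvl wt hearts and 1191 CPM in wild type, with a log2 change of 0.03 ± 0.08, and Cox8b averaged 333.5 and 321 CPM, with a change of 0.05 ± 0.10 (SE). For Acadvl KO against Acadvl wt the changes were -0.18 ± 0.08 for Cox6a2 and -0.10 ± 0.10 for Cox8b. Set on 1 scale per length, Cox6a2 was 86.7% ± 1.35 of the Cox6a pair in labelled Acadl KO / Acadvl wt hearts, 87.27% ± 0.44 in labelled Acadl KO / Acadvl Het hearts and 87.18% ± 1.91 in Acadl Het / Acadvl KO hearts. It was 93.4% ± 0.24 in Acadl Het / Acadvl Het hearts, 93.43% ± 0.40 in Acadl Het / Acadvl wt hearts and 93.72% ± 0.34 in wild type (SD). Cox8b was 75.86%, 72.77% and 74.84% of its pair in the 3 genotypes with a labelled knockout, in that order, and 82.97%, 82.51% and 83.01% in the other 3. The muscle forms thus stayed the more abundant form of both pairs in every genotype.

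For labelled Acadl KO against Acadl Het hearts, the share of Cox6a2 differed by -6.4 percentage points and that of Cox8b by -8.563 points, and both had p = 0.000175 in an exact permutation test (both tails) of 9 against 7 libraries, the smallest p it allows (adjusted p = 0.00175 over 20 share tests). Against wild type the shares differed by -7.02 and -7.15 points, and for Acadvl KO by -6.25 and -7.67 points. Each of these had an exact permutation p = 0.0286, the smallest that 4 against 4 allows, and an adjusted p = 0.0635. Cox7a1, the muscle form of another subunit, was 74.63% ± 2.62 of its pair with Cox7a2 in labelled Acadl KO hearts and 78.22% ± 1.18 in Acadl Het hearts (SD, exact permutation p = 0.000699 over n = 9 and 7, adjusted p = 0.00466). There it was the muscle form that moved: Cox7a1 fell by 0.25 ± 0.09 on the log2 scale (edgeR adjusted p = 0.0242), and Cox7a2 had a change of 0.00 ± 0.06. The Cox7a1 call ended when any 1 of 5 libraries was left out (replicates 2 and 3 of Acadl Het / Acadvl Het, replicate 2 of Acadl Het / Acadvl wt, or replicate 2 or 4 of labelled Acadl KO / Acadvl wt), with changes of -0.28 to -0.20 over all omissions. It also ended without the libraries above 10 CPM of Alb, where Acadl Het / Acadvl wt was the only control (-0.22). Its share was 76.02% in labelled Acadl KO / Acadvl wt hearts against 78.53% in wild type, and 77.61% in Acadl Het / Acadvl KO hearts against 78.5% in Acadl Het / Acadvl wt hearts (exact permutation p = 0.0286 and 0.371, n = 4 each, adjusted p = 0.0635 and 0.531).

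The remaining 2 pairs were one-sided throughout. Cox4i2, the form known from lung and from low oxygen, made up 0.45% to 0.55% of its pair with Cox4i1 as genotype means, and Ndufa4l2, known as a target of hypoxia-inducible factor, made up 1.11% to 1.53% of its pair with Ndufa4. Ndufa4l2 averaged 16.87 ± 3.18 CPM in labelled Acadl KO hearts (n = 9) and 14.38 ± 0.99 CPM in Acadl Het hearts (SD, n = 7), and rose by 0.24 ± 0.09 on the log2 scale (edgeR adjusted p = 0.0263). The ranges of the 2 sides overlapped. The call ended without replicate 1 or 3 of Acadl Het / Acadvl Het or replicate 1 or 4 of labelled Acadl KO / Acadvl wt, with scaling by library totals (0.19) and with batch 2 alone (0.14). The direct comparison of labelled Acadl KO / Acadvl wt with Acadl Het / Acadvl KO hearts called neither Cox6a1 (log2 change 0.25 ± 0.11) nor Cox8a (0.05 ± 0.12).

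**Figure D2:**
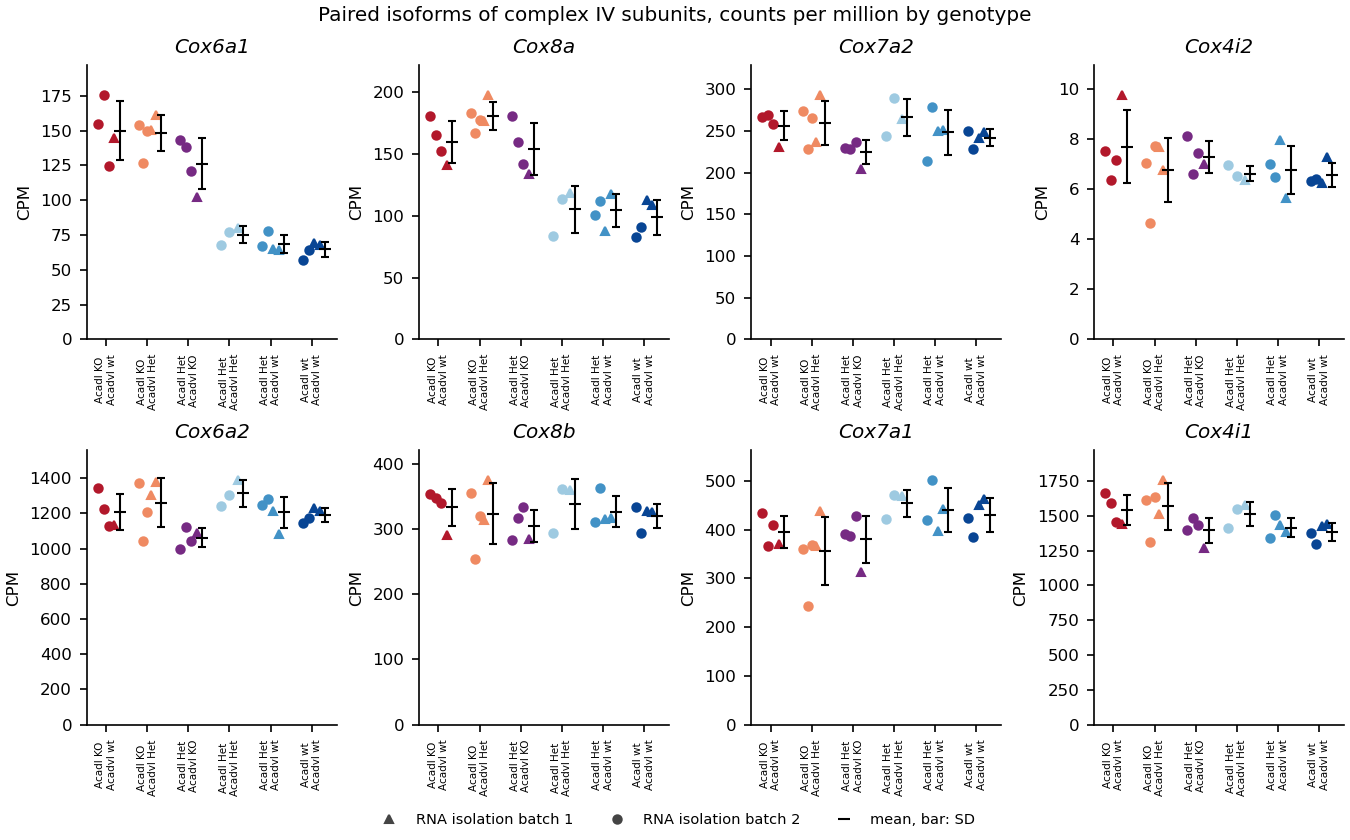
CPM of 4 pairs of complex IV isoforms in each library by genotype, with mean and SD beside the points, and RNA isolation batch shown by symbol. Cox6a1 sits between 102.4 and 175.8 CPM in the 3 genotypes with a labelled knockout and between 57.07 and 79.94 CPM in the others, and Cox8a separates the same way, while Cox6a2 and Cox8b overlap across the genotypes.

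For labelled Acadl KO / Acadvl wt against wild type, 7 of the 84 genes were called higher and 1 lower (edgeR, adjusted p under 0.05), where 37.2% of all genes were called, 19.6% higher and 17.6% lower. The median log2 change was 0.04 in the subunit genes and -0.02 in all genes. Scaling by library totals alone moved the median of all genes to -0.13 and that of the subunit genes to -0.08, and the calls were then 3 higher and 2 lower. Beside Cox6a1 and Cox8a, those that rose were Atp5sl, Uqcr10, Ndufs7, Sdhd and Cox7a2l, and Sdhc fell. The last of the risers, Cox7a2l, is a factor for supercomplexes of complexes III and IV. It averaged 207 ± 15.7 CPM in labelled Acadl KO / Acadvl wt hearts, against 180.5 ± 2.36 CPM in wild type (SD, n = 4 each, log2 change 0.19 ± 0.06, edgeR adjusted p = 0.0124). The Cox7a2l call was lost with scaling by library totals (0.07) and without the libraries above 10 CPM of Alb (0.14), and its value in batch 1 was 0.06. Without those libraries, 4 genes were called. The 8 endothelial markers summed to 2082 to 3257 CPM in labelled Acadl KO / Acadvl wt hearts against 1818 to 1996 CPM in wild type. Of these 8, 1 was called higher and 0 lower, and their median log2 change was 0.08. The 10 hepatocyte markers summed to 19.25 to 153.5 CPM against 14.43 to 25.32 CPM, with 1 called higher and 0 lower (median log2 change 2.89). Of 10 cardiomyocyte markers 0 rose and 2 fell (-0.02), and of 12 pericyte and smooth muscle markers 0 rose and 2 fell (-0.09). The part of these markers in the result was not tested.

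For labelled Acadl KO against Acadl Het, over Acadvl wt and Acadvl Het, 8 genes were called higher and 4 lower, where 54.7% of all genes were called, 26.7% higher and 27.9% lower. The medians were -0.01 in the subunit genes and -0.02 in all genes. The calls were 4 higher and 6 lower with scaling by library totals, 12 higher and 4 lower without replicate 2 of labelled Acadl KO / Acadvl Het, and 6 higher and 7 lower without replicate 1 of Acadl Het / Acadvl Het. Within batch 2 they were 4 higher and 2 lower. Among the marker lists, 0 of 7 fibroblast markers rose and 4 fell (median log2 change -0.35), and 0 of 10 hepatocyte markers rose and 6 fell (-2.0). Of 8 endothelial markers 3 rose and 1 fell (0.08), of 12 pericyte and smooth muscle markers 1 rose and 4 fell (0.07), and of 10 cardiomyocyte markers 1 rose and 3 fell (-0.03). The fibroblast markers summed to 780.8 to 1048 CPM in labelled Acadl KO hearts against 871.3 to 1229 CPM in Acadl Het hearts, and the hepatocyte markers to 19.25 to 153.5 CPM against 21.88 to 328.8 CPM, and no marker of either list was at 0 in every library. The part of these markers in the result was not tested. This comparison shares the labelled Acadl KO / Acadvl wt libraries with the one against wild type, and the Acadl Het / Acadvl wt libraries with the one for Acadvl KO, so their values are not independent. Whether the effect of the Acadl label differed between Acadvl Het and Acadvl wt hearts was tested as an interaction. Of the 84 genes 0 passed in edgeR (smallest adjusted p = 0.997), and 0 had an unadjusted p under 0.05. Of all 15804 genes tested 0 passed as well, so this count is not a result about the subunit genes.

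For Acadvl KO against Acadvl wt in Acadl Het hearts, 3 genes were called higher and 14 lower, where 24.4% of all genes were called, 12.9% higher and 11.5% lower. Of the 84 genes, 69 (82.1%) had a log2 change below 0, against 47.9% of all genes. The subunit genes moved together within libraries: replicate 2 of Acadl Het / Acadvl wt, a control here, was the highest of its 4 for 76. These 69 genes are therefore not independent observations. The median change was -0.14 in the subunit genes and 0.02 in all genes, and -0.13 and -0.17 in the subunit genes within batches 2 and 1. By complex, 6 of 36 fell in complex I, 3 of 4 in complex II, 0 of 9 in complex III, 1 of 18 in complex IV and 4 of 17 in complex V, and the 3 that rose were Cox6a1, Cox8a and Atp5sl. The calls were 3 higher and 7 lower with scaling by library totals, 2 and 7 without the libraries above 10 CPM of Alb, and 2 and 1 within batch 2. The gene called lower within batch 2 was Sdhc. The next 4 by size of p did not pass there, and their changes were below 0 in both batches, with values in batches 2 and 1 of -0.26 and -0.41 for Sdha, -0.26 and -0.39 for Cox6c, -0.28 and -0.37 for Atp5j, and -0.19 and -0.31 for Ndufs1. Leaving out replicate 1 of Acadl Het / Acadvl KO, or replicate 2 of Acadl Het / Acadvl wt, left 7 calls. There were 9 without replicate 4 of Acadl Het / Acadvl KO and 10 without replicate 3 or 4 of Acadl Het / Acadvl wt. Among the cardiomyocyte markers, 3 of 10 also fell and 1 rose, with a median change of -0.16, and they summed to 72778 to 86098 CPM in Acadl Het / Acadvl KO hearts against 71642 to 85264 CPM in Acadl Het / Acadvl wt hearts. The 6 leukocyte markers summed to 63.25 to 131.9 CPM against 60.85 to 74.32 CPM in the same order. Of the 5 tested, 1 rose and 0 fell (median log2 change 0.45). The 12 pericyte and smooth muscle markers summed to 870.1 to 942.5 CPM against 960.5 to 1145 CPM, and 0 rose and 2 fell (0.01). The 8 skeletal muscle markers summed to 2792 to 3241 CPM against 2297 to 2707 CPM, and of 5 tested 1 rose and 1 fell (-0.16). Of 8 endothelial and 7 fibroblast markers 0 were called. The part of these markers in the result was not tested, and in whole heart fewer cells of a type and less RNA per cell cannot be told apart.

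**Figure D3:**
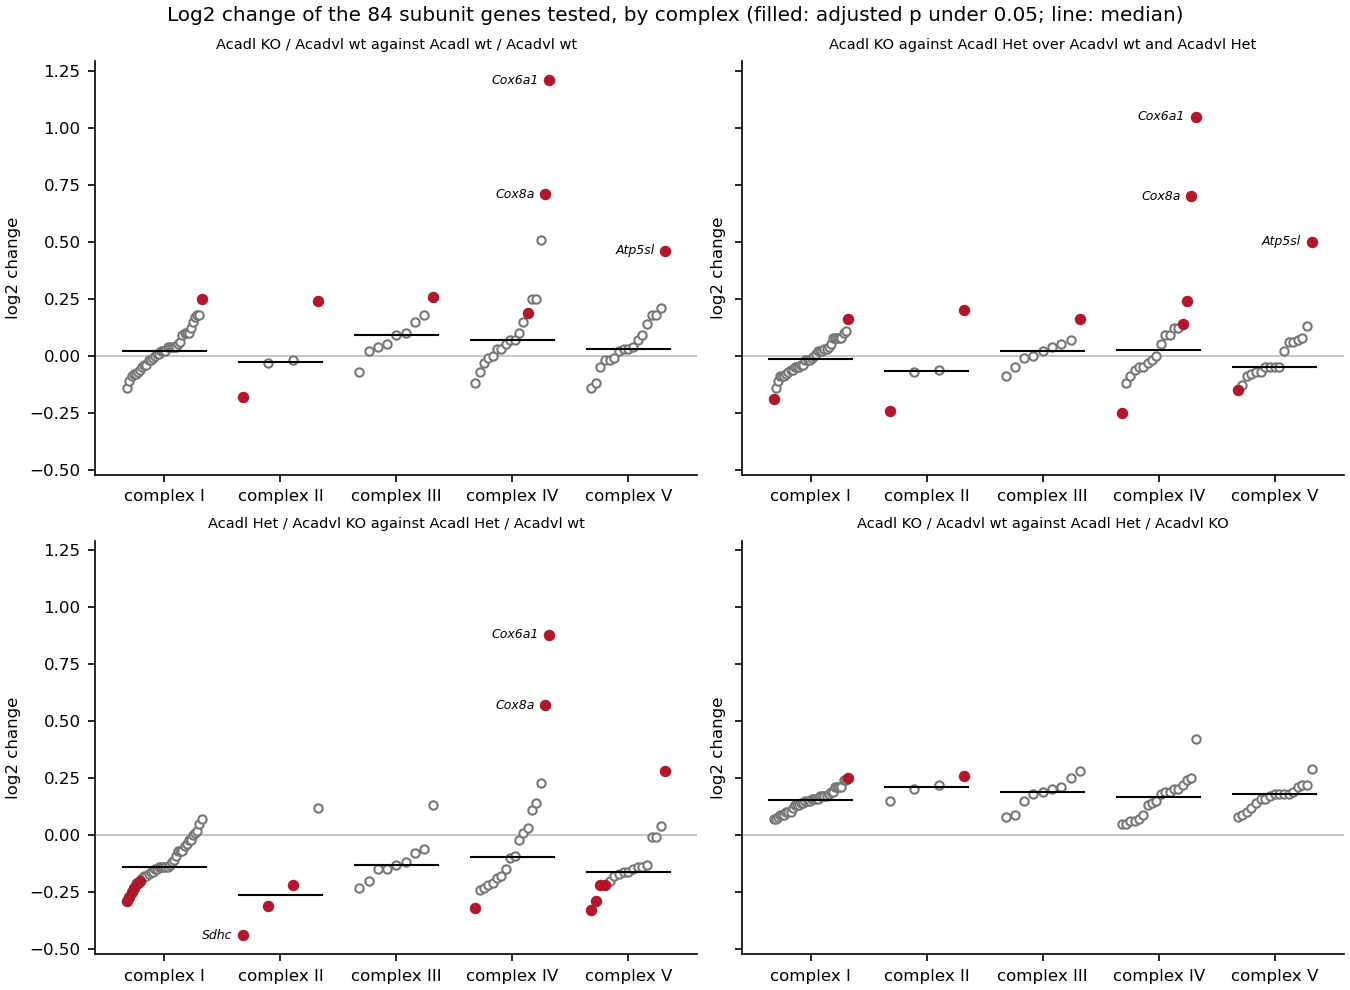
Log2 change of each of the 84 tested subunit genes in 4 comparisons, by complex, with filled points for adjusted p under 0.05 (edgeR) and a line at each complex's median. Cox6a1 and Cox8a lead the rises in 3 panels, most genes lie below 0 for Acadl Het / Acadvl KO against Acadl Het / Acadvl wt, and all lie above 0 for labelled Acadl KO / Acadvl wt against Acadl Het / Acadvl KO.

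In complex I, 6 of 36 genes were called lower in Acadvl KO hearts, where 11.5% of all genes were, and none of them passed within batch 2. Ndufs1, the large iron-sulfur subunit of the NADH-oxidising arm, averaged 746.1 ± 53.1 CPM in Acadl Het / Acadvl KO hearts and 873.5 ± 46.7 CPM in hearts of Acadl Het / Acadvl wt (SD, n = 4 each, log2 change -0.25 ± 0.06 SE, edgeR adjusted p = 0.00719), and these ranges overlapped. The accessory subunit gene Ndufc1 averaged 120.1 ± 9.19 and 146.2 ± 7.17 CPM in the same order, without overlap (-0.29 ± 0.08, edgeR adjusted p = 0.0147). The Ndufc1 call ended without replicate 1 or 4 of Acadl Het / Acadvl KO or replicate 2 of Acadl Het / Acadvl wt, with changes of -0.33 to -0.25 over all omissions, and within batch 2 (-0.27). Ndufb4, another accessory subunit gene, fell by 0.27 ± 0.10 (edgeR adjusted p = 0.0437), a call that ended under 17 of the 24 single-library omissions, with changes of -0.34 to -0.21. This call also ended with scaling by library totals (-0.28) and without the filter on low counts (-0.28). Within batch 2 (-0.23) and without the libraries above 10 CPM of Alb (-0.23) it did not pass either. Ndufb4 also fell in labelled Acadl KO against Acadl Het hearts (-0.19 ± 0.07, edgeR adjusted p = 0.0213), a call that ended without replicate 2 of any of Acadl Het / Acadvl Het, Acadl Het / Acadvl wt and labelled Acadl KO / Acadvl wt. It also ended within batch 2 (-0.22) and without the libraries above 10 CPM of Alb (-0.19). The other 3 genes called lower, Ndufa1, Ndufs3 and Ndufv2, changed by -0.23, -0.20 and -0.21. They were named after their values were seen, and their results under omissions are not given here. Ndufs7, a core subunit of the arm that reduces coenzyme Q, rose with the Acadl label. It averaged 527.3 ± 45.1 CPM in labelled Acadl KO / Acadvl wt hearts and 443.4 ± 16.6 CPM in wild type (log2 change 0.25 ± 0.09, edgeR adjusted p = 0.0356), and this call ended under 6 of 24 single-library omissions, with changes of 0.22 to 0.30. Against Acadl Het it rose by 0.16 ± 0.07 (edgeR adjusted p = 0.0494), which 15 of 24 omissions ended, with changes of 0.14 to 0.20. Neither Ndufs7 call passed with scaling by library totals (0.14 and 0.10), within batch 2 (0.29 and 0.12) or without the libraries above 10 CPM of Alb (0.24 and 0.20).

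In complex II, which also serves the citric acid cycle as succinate dehydrogenase, the 2 membrane anchor genes moved apart. Sdhc (chr1:171129157-171150603, mm10, minus strand) had 374.5, 386.5, 355.8 and 353.2 CPM in labelled Acadl KO / Acadvl wt hearts and 391.4, 313, 362, 368.7 and 386.1 CPM in labelled Acadl KO / Acadvl Het hearts. It had 309.9, 328.1, 330.4 and 313.5 CPM in hearts of Acadl Het / Acadvl KO. The controls had 432.5, 434.3 and 420.9 CPM in Acadl Het / Acadvl Het hearts, 435.9, 441.1, 438.1 and 416.2 CPM in Acadl Het / Acadvl wt hearts, and 415, 423.1, 410.4 and 414.1 CPM in wild type. All libraries of the 3 genotypes with a labelled knockout were below all of the other 3. Sdhc fell by 0.44 ± 0.06 on the log2 scale in Acadvl KO hearts (edgeR adjusted p = 3.72e-05), by 0.24 ± 0.04 in labelled Acadl KO against Acadl Het hearts (edgeR adjusted p = 0.000109) and by 0.18 ± 0.06 against wild type (edgeR adjusted p = 0.0241). No omission ended the first or second call, and both passed within batch 2, with values of -0.43 and -0.21 in batch 1. The last call did not pass within batch 2 (-0.16, and -0.22 in batch 1) or without the libraries above 10 CPM of Alb (-0.20), and it ended without replicate 2 of wild type, or replicate 3 or 4 of labelled Acadl KO / Acadvl wt, with changes of -0.19 to -0.16 over all omissions.

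Sdhd (chr9:50596340-50603849, mm10, minus strand), the other anchor gene, had 384.7, 480.1, 382.5 and 395.3 CPM in labelled Acadl KO / Acadvl wt hearts, against 346.9, 348.3, 341.1 and 336.4 CPM in wild type. These did not overlap, and replicate 2 of labelled Acadl KO / Acadvl wt was the highest. It rose by 0.24 ± 0.07 there (edgeR adjusted p = 0.012) and by 0.20 ± 0.05 in labelled Acadl KO against Acadl Het hearts (edgeR adjusted p = 0.00322). No single omission ended either call, but neither passed within batch 2 (0.27 against wild type and 0.16 against Acadl Het, with 0.23 and 0.28 in batch 1). The call against wild type also ended with scaling by library totals (0.13) and without the libraries above 10 CPM of Alb (0.18). In Acadvl KO hearts its change was 0.12 ± 0.07, which did not pass. Sdha, the catalytic flavoprotein gene, had 1526, 1791, 1621 and 1477 CPM in hearts of Acadl Het / Acadvl KO, against 1820, 2122, 1999 and 1969 CPM in Acadl Het / Acadvl wt hearts. The 2 sides did not overlap, and Sdha fell by 0.31 ± 0.07 (edgeR adjusted p = 0.00364). Sdhb, the iron-sulfur gene, fell by 0.22 ± 0.08 (edgeR adjusted p = 0.0416), a call that ended under 16 of 24 single-library omissions, with changes of -0.25 to -0.17. The Sdhb call also ended with scaling by library totals (-0.23), within batch 2 (-0.24) and without the libraries above 10 CPM of Alb (-0.24). In labelled Acadl KO / Acadvl wt hearts against wild type, Sdha changed by -0.03 ± 0.07 and Sdhb by -0.02 ± 0.08 (SE).

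**Figure D4:**
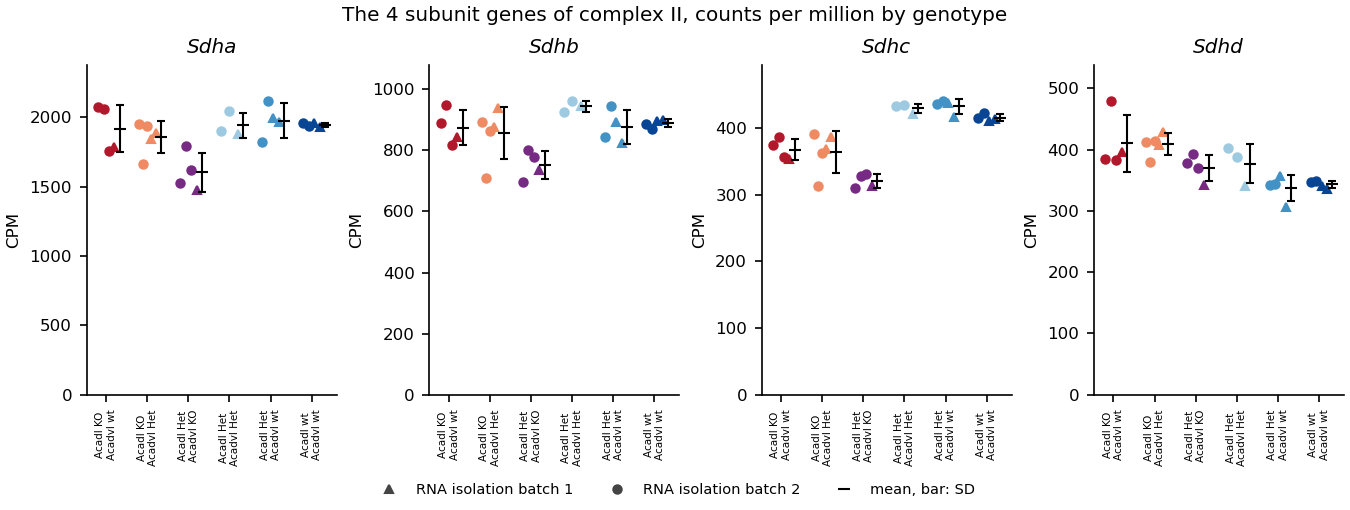
CPM of the 4 complex II genes in each library by genotype, with mean and SD beside the points and RNA isolation batch shown by symbol. Sdhc lies between 309.9 and 391.4 CPM in the 3 genotypes with a labelled knockout and between 410.4 and 441.1 CPM in the others, and Sdha is lowest in Acadl Het / Acadvl KO hearts.

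In complex III, 1 gene was called in a pairwise comparison. Uqcr10, a small accessory subunit gene, averaged 249 ± 19.3 CPM in labelled Acadl KO / Acadvl wt hearts and 206.8 ± 9.92 CPM in wild type (SD, n = 4 each, log2 change 0.26 ± 0.08, edgeR adjusted p = 0.0108). It rose by 0.16 ± 0.05 against Acadl Het (edgeR adjusted p = 0.0144), and neither call ended with a single omission. With scaling by library totals neither passed (0.14 and 0.10). The call against wild type also ended without the libraries above 10 CPM of Alb (0.24), and its value in batch 1 was 0.08. The call against Acadl Het also ended within batch 2 (0.18), with 0.11 in batch 1.

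Beyond the isoforms, 1 complex IV gene fell in Acadvl KO hearts. Cox6c, a small structural subunit gene, had 469.9, 523.1, 509.2 and 461 CPM in hearts of Acadl Het / Acadvl KO and 544.9, 655.4, 621.3 and 596.5 CPM in Acadl Het / Acadvl wt hearts. The sides did not overlap, and Cox6c fell by 0.32 ± 0.08 on the log2 scale (edgeR adjusted p = 0.00413).

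In complex V, Atp5j, the gene of coupling factor 6 in the stalk, fell in Acadvl KO hearts. It had 368.6, 406.3, 396.5 and 378.4 CPM in hearts of Acadl Het / Acadvl KO, against 442.5, 508.1, 491.9 and 496.7 CPM in Acadl Het / Acadvl wt hearts, with a log2 change of -0.33 ± 0.07 (edgeR adjusted p = 0.00217). In labelled Acadl KO against Acadl Het hearts it fell by 0.15 ± 0.05 (edgeR adjusted p = 0.0147), a call that ended without replicate 2 of Acadl Het / Acadvl Het and within batch 2 (-0.12). Atp5e, the epsilon subunit gene, fell by 0.29 ± 0.09 in Acadvl KO hearts (edgeR adjusted p = 0.0253), which 6 of 24 single omissions ended, with changes of -0.34 to -0.23. Atp5c1, the gamma subunit gene of the rotor, and Atp5f1, a stalk gene, each fell by 0.22 there and were named after their values were seen.

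Atp5sl, the complex I assembly factor with an ATP synthase name, rose with both labels. It had 62.13, 65.73, 51.51 and 62.18 CPM in labelled Acadl KO / Acadvl wt hearts, against 41.26, 46.8, 42.06 and 43.96 CPM in wild type, and 64.65, 58.9, 46.04 and 46.28 CPM in hearts of Acadl Het / Acadvl KO, against 45.01, 44.68, 44.9 and 40.87 CPM in Acadl Het / Acadvl wt hearts. Neither comparison had overlapping ranges, and replicates 3 and 4 of Acadl Het / Acadvl KO lay closest to their controls. Of all genes, 35.8% and 23.5% had no overlap in these 2 comparisons. The log2 change was 0.46 ± 0.10 against wild type (edgeR adjusted p = 0.00128), 0.50 ± 0.07 against Acadl Het (edgeR adjusted p = 7.29e-06) and 0.28 ± 0.10 for Acadvl KO (edgeR adjusted p = 0.0453). The last call ended under 7 of 24 single omissions, with changes of 0.20 to 0.36, and did not pass within batch 2 (0.34, and 0.12 in batch 1), without the filter on low counts (0.28) or without the libraries above 10 CPM of Alb (0.25).

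Summed over the genes of each complex, levels were lowest in Acadl Het / Acadvl KO hearts as genotype means for all 5 complexes. Complex V summed to 18997 ± 1085 CPM in Acadl Het / Acadvl KO hearts and 21080 ± 1154 CPM in Acadl Het / Acadvl wt hearts, and complex II to 3048 ± 203 and 3624 ± 184 CPM in the same order (SD, n = 4 each). The complex II sums did not overlap, with 2869 to 3312 CPM in Acadl Het / Acadvl KO hearts and 3442 to 3853 CPM in Acadl Het / Acadvl wt hearts, and those of complex V did (17729 to 20160 and 19776 to 22495 CPM). In labelled Acadl KO / Acadvl wt hearts, complex V summed to 21854 ± 1288 CPM and complex II to 3572 ± 271 CPM, against 20723 ± 175 and 3595 ± 16.9 CPM in wild type. These sums are a description, since most of each comes from a few abundant genes.

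**Figure D5:**
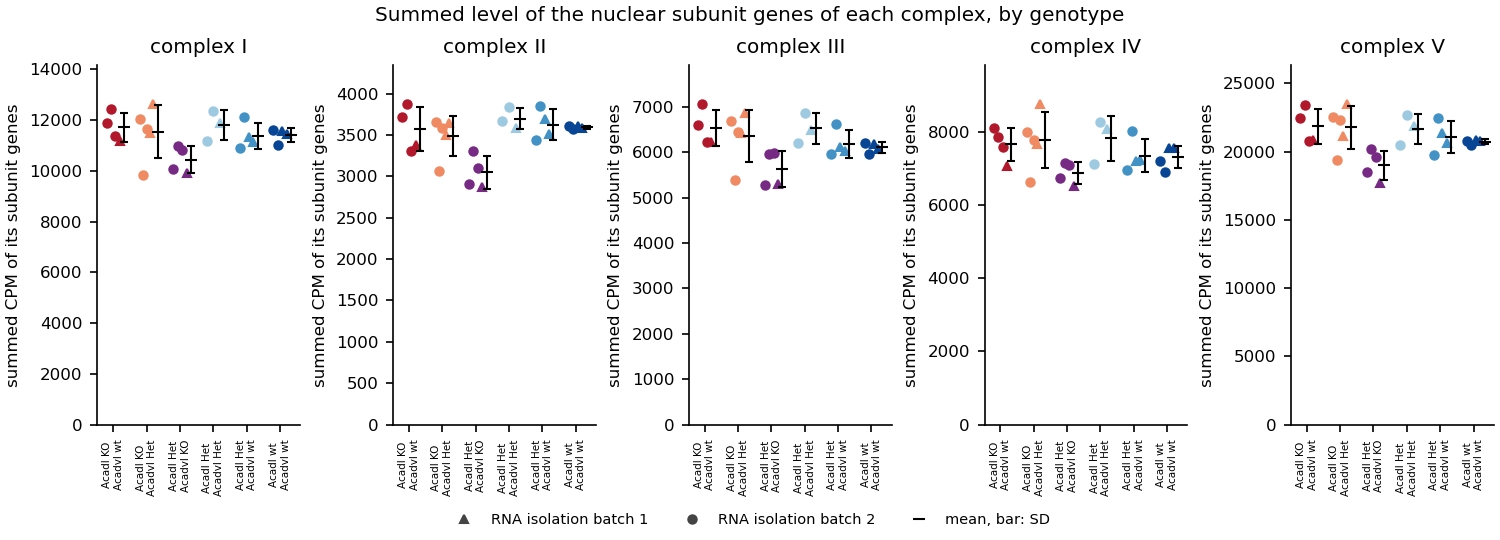
Summed CPM of the nuclear subunit genes of each complex in each library by genotype, with mean and SD beside the points and RNA isolation batch shown by symbol. Acadl Het / Acadvl KO hearts have the lowest mean in all 5 panels, and the lowest labelled Acadl KO / Acadvl Het point of every panel is replicate 2.

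Set directly against Acadl Het / Acadvl KO hearts, labelled Acadl KO / Acadvl wt hearts had higher levels of all 84 genes, with log2 changes of 0.05 to 0.42 and a median of 0.16, where 50.9% of all genes were above 0 and the median was 0.00. With scaling by library totals 74 of 84 were above 0 and the median was 0.07. These libraries also enter the comparisons above. The genes moved together within libraries, so the 84 are not independent observations. Single genes seldom passed: 2 were called higher and 0 lower, where 4.43% of all genes were called, 1.77% higher and 2.66% lower. They were Sdha, with 1919 ± 172 CPM in labelled Acadl KO / Acadvl wt hearts and 1604 ± 139 CPM in hearts of Acadl Het / Acadvl KO (log2 change 0.26 ± 0.07, edgeR adjusted p = 0.0449), and Ndufs1, with 889.8 ± 54.1 and 746.1 ± 53.1 CPM in the same order (0.25 ± 0.06, edgeR adjusted p = 0.0269). The Sdha call ended under 19 of 24 single omissions (0.21 to 0.31) and the Ndufs1 call under 5 (0.20 to 0.29). The count was 10 without replicate 2 of labelled Acadl KO / Acadvl Het, 0 without any 1 of replicates 1 and 2 of labelled Acadl KO / Acadvl wt and replicates 1, 3 and 4 of Acadl Het / Acadvl KO, and 13 in DESeq2. The share of all genes called in those fits is not given. In this comparison the cardiomyocyte markers had a median change of 0.11, with 0 of 10 called, and the fibroblast markers a median of -0.59, with 1 of 7 lower; their part was not tested.

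For Acadl Het / Acadvl wt hearts against wild type, 0 of 84 subunit genes were called by edgeR, where 0% of all genes were, and 0 had an unadjusted p under 0.05. DESeq2 also called 0 of the 84. The log2 changes ran from -0.14 to 0.33, with a median of 0.01.

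Other genes of the pathway were counted from lists, to be read against all genes, of which 19.6% rose and 17.6% fell against wild type and 12.9% rose and 11.5% fell in Acadvl KO hearts. A count near these shares is not a result about its list. Among 13 regulators of respiratory chain genes, 8 rose and 0 fell in labelled Acadl KO / Acadvl wt hearts against wild type, with a median log2 change of 0.55. They included Ppargc1a, the coactivator of mitochondrial biogenesis (1.49 ± 0.39, edgeR adjusted p = 0.00567), its partner receptor Esrra (0.83 ± 0.10, edgeR adjusted p = 5.14e-06) and Nrf1, nuclear respiratory factor 1 (0.32 ± 0.10, edgeR adjusted p = 0.0193). In Acadvl KO hearts 2 of the 13 rose, Esrra (0.53 ± 0.10) and Esrrb (0.30 ± 0.10), and 0 fell, with a median of 0.24.

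Assembly factors insert cofactors and join subunits without staying in the finished complex. Of 25 complex IV assembly factors, 10 rose and 1 fell in labelled Acadl KO / Acadvl wt hearts against wild type (median 0.19), where 19.6% of all genes rose, and 4 rose and 4 fell in Acadvl KO hearts (median 0.01), a count near the background shares of 12.9% and 11.5%. The largest rises were those of Sco2, a copper chaperone (1.14 ± 0.11 against wild type, edgeR adjusted p = 3.49e-07, and 0.76 ± 0.11 for Acadvl KO), and Cox10, an enzyme of heme A synthesis (1.09 ± 0.09, edgeR adjusted p = 4.37e-08, and 0.75 ± 0.09). Of 14 complex I assembly factors, 7 rose and 1 fell against wild type, led by Ndufaf4 (0.62 ± 0.09, edgeR adjusted p = 4.6e-05), and 1 rose and 2 fell in Acadvl KO hearts. Of 4 complex II factors 1 rose and 0 fell against wild type, of 6 complex III factors 2 rose and 0 fell, and of 4 complex V factors 0 were called. In Acadvl KO hearts 0 complex II factors were called, 2 complex III factors rose and 2 fell, and the complex V factor Tmem70 fell (-0.48 ± 0.11, edgeR adjusted p = 0.00283).

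Of 15 genes that copy or express mitochondrial DNA, 7 rose and 1 fell in labelled Acadl KO / Acadvl wt hearts against wild type (median 0.28), where 19.6% of all genes rose and 17.6% fell. In Acadvl KO hearts 3 rose and 1 fell (median 0.08), where 12.9% of all genes rose and 11.5% fell. Peo1, the mitochondrial helicase Twinkle, rose by 1.02 ± 0.11 against wild type (edgeR adjusted p = 9.4e-07), and Polrmt, the mitochondrial RNA polymerase, by 0.65 ± 0.09 (edgeR adjusted p = 1.93e-05). Among 14 genes for cytochrome c and coenzyme Q synthesis, 5 rose and 2 fell against wild type (median 0.17), and 1 rose and 3 fell in Acadvl KO hearts (median -0.01). Pdss1, which makes the side chain of coenzyme Q, rose by 1.30 ± 0.14 and 0.70 ± 0.14 in these 2 comparisons (edgeR adjusted p = 8.41e-07 and 0.000765), and Coq2, which attaches that chain, fell by 0.37 ± 0.06 and 0.52 ± 0.06 (edgeR adjusted p = 0.000144 and 9.57e-06).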

How the data were processed

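Libraries were made by poly(A) capture and sequenced as single-end reads, per the labels' protocols. The authors deposited raw counts of reads over each gene, made with featureCounts 1.5.2 on mm10 genes, without strand and with primary alignments only, per the file headers. The tools listed were STAR 2.5.1b and featureCounts 1.5.3, per the submitters' processing notes. The subunit genes, gene lists, isoform pairs, motifs and the rule for naming genes were chosen with earlier results of these data known. The rule names the isoform pairs, the highest and lowest genes per length of each complex, and up to 8 rising and 8 falling called genes per comparison.

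Counts were fitted in edgeR 4.0.16 (R 4.3.3). Genes were filtered with filterByExpr, which left 15804, and scaled by TMM factors. One quasi-likelihood fit over all 24 libraries had genotype and RNA isolation batch (9 and 15 libraries, each genotype in both) as terms. P-values from both tails were adjusted over the 15804 genes (Benjamini-Hochberg), at a threshold of 0.05. Fold changes are log2 with SE from the F statistic. CPM and RPKM were computed from the counts with TMM factors, and RPKM used the exon lengths in the files. Isoform shares were tested by exact permutation over libraries, without the batch term. The gene test was checked on simulated counts. DESeq2 1.42.0, other scalings, no filter, no batch term, single batches, and omissions of libraries were tried as alternatives. Without the libraries above 10 CPM of Alb, labelled Acadl KO was set against Acadl Het / Acadvl wt alone. Of 86 genes, 84 were tested.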

Additional observations from a re-analysis of the deposited data

Results flagged for a closer look

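Among 165 combinations of a genotype with at least 4 libraries and a subunit gene that the naming rule picked and the filter kept, 9 had 1 library far from the others, where chance alone gives about 1 in 20 of the groups. The values, each in CPM, come first and the range of the other libraries of that genotype after it. In replicate 2 of labelled Acadl KO / Acadvl wt, Sdhd had 480.1 (others 382.5 to 395.3) and Ndufa11 had 269.3 (231.5 to 234.6). In replicate 2 of labelled Acadl KO / Acadvl Het, Ndufs7 had 365.1 (510.1 to 540.8) and Uqcrc1 had 1318 (1696 to 1821). In replicate 3 of labelled Acadl KO / Acadvl Het, Atp5s had 17.13 (19.89 to 20.8). In Acadl Het / Acadvl wt, Cox8b had 363.4 in replicate 2 (311.5 to 317.7) and Atp5sl had 40.87 in replicate 4 (44.68 to 45.01). In wild type, Ndufb9 had 530.5 in replicate 2 (580.6 to 584.3) and Atp5a1 had 5376 in replicate 4 (5487 to 5500).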

How the results depend on the processing

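No paired analysis was possible because replicate numbers were given in accession order and pair nothing. The counts of called subunit genes moved by over 1.5 times as follows, against 8 for labelled Acadl KO / Acadvl wt over wild type, 12 for labelled Acadl KO over Acadl Het, 17 for Acadvl KO over Acadvl wt, 2 for labelled Acadl KO / Acadvl wt over Acadl Het / Acadvl KO and 19 among all genotypes. With library totals alone they were 5 for the first, 10 for the third, 0 for the fourth and 11 among all genotypes. In batch 2 alone they were 6 for the second, 3 for the third, 0 for the fourth and 4 among all genotypes. In batch 1 alone they were 1, 4, 1 and 0 for the 4 pairs and 1 among all genotypes, with 1 library in some groups, assumed to vary like the others. Without the libraries above 10 CPM of Alb they were 4 for the first, 9 for the third and 0 for the fourth, and DESeq2 gave 13 for the fourth. Fewer samples entered these single-batch fits, and the cause of the other moves was not tested. The share of all genes called in each of these fits is not given.

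Leaving out 1 library gave 7 to 22 calls for Acadvl KO, 0 to 10 for labelled Acadl KO / Acadvl wt over Acadl Het / Acadvl KO, and 8 to 34 among all genotypes. The second of these counts moved by over 1.5 times under every omission except that of replicate 1 of Acadl Het / Acadvl wt. The count for Acadvl KO fell to 7 without replicate 1 of Acadl Het / Acadvl KO or replicate 2 of Acadl Het / Acadvl wt, to 9 without replicate 4 of Acadl Het / Acadvl KO, and to 10 without replicate 3 or 4 of Acadl Het / Acadvl wt. No log2 change of the 34 calls of named genes turned its sign, and 110 of 816 single-library fits and 77 of 272 others ended a call.

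Some small share differences, none of which passed the test, turned their sign. In batch 2 alone, Cox4i2 differed by -0.03055 points over wild type and -0.03453 over Acadl Het, and Cox6a2 by 0.429 between labelled Acadl KO / Acadvl wt and Acadl Het / Acadvl KO. With 1 library left out, Cox4i2 ran from -0.0278 to 0.06862 points over wild type, from -0.02653 to 0.01745 over Acadl Het, and from -0.08021 to 0.0162 between labelled Acadl KO / Acadvl wt and Acadl Het / Acadvl KO. In that last comparison Cox6a2 ran from -1.234 to 0.3076, Cox8b from -0.4988 to 2.067 and Ndufa4l2 from -0.1862 to 0.1077. A share test of 4 against 4 libraries cannot pass once 1 is left out.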
